A study of Mus musculus with 2 samples.

Results

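The mitochondrial ribosomal protein genes were examined in the epidermis of mouse pups carrying a keratinocyte deletion of the vitamin D receptor gene Vdr and in their littermates. Members were all probes whose array symbol starts with Mrpl (large subunit) or Mrps (small subunit) followed by a digit. The rule found 105 probes for 72 genes, of 25697 probes for 17871 genes on the array. Of these genes 43 belong to the large subunit by name and 29 to the small subunit. The KO pool came from C57BL6 pups with both Vdr alleles floxed (VDR fl/fl) and a Cre recombinase driven by the keratin 14 promoter. The CON pool came from littermates with the same floxed alleles and no Cre. All pups were at postnatal day 5, and each pool joined the epidermal RNA of 3 mice after dispase treatment of back skin. The keratin 14 promoter is active in basal keratinocytes and in the cells that descend from them, so other cells of the epidermis keep the gene. The series concerns how this receptor and the calcium sensing receptor act together when the epidermis differentiates.

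The mitochondrial ribosome sits inside mitochondria and translates the few messenger RNAs of the mitochondrial genome. Their products are core subunits of the respiratory chain and of ATP synthase. Its ribosomal RNAs come from the mitochondrial genome, while every one of its proteins is encoded in the nucleus, made in the cytosol and imported. Some of these proteins have counterparts in bacterial ribosomes and others are found only in mitochondria. In keratinocytes, as in other cells that divide, they are housekeeping genes.

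Each genotype was measured once, so there was no spread between replicates and no difference given here has a test. Genes at least 1.5-fold higher or lower (0.585 on the log2 scale) were called, a rule of size alone. Both arrays carried the same chip barcode in the file headers, so position on the chip and genotype cannot be told apart. Of 3 Vdr probes the brightest read raw signals of 2442 in the pool labelled KO and 1913 in CON, a log2 change of 0.33. The second read 1560 in KO and 1204 in CON (0.37), and the dimmest 189 in KO and 193 in CON (-0.23), so Vdr was not lower by its bright probes. The sources used here name neither the deleted exons nor the positions of the probes. The genotype labels are thus unchecked, and every direction below rests on the label KO. Keratinocyte markers were detected for 11 of 13 genes in both pools, with summed signals of 185133 in KO and 189658 in CON. Itga6 and Dsg1a were the keratinocyte markers below detection.

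Upstream sequence is shown for the members that were highest in each subunit, Mrpl2 and Mrps18c, and for Mrpl51, the single member past the size limit. Each run holds the 250 bases before the transcription start in RefSeq (build GRCm38.p6, plus strand), with matches to 3 short motifs in capitals. The motifs were CCGGAAG, a core bound by ETS factors such as GABP, GCGCATGC, a core of the NRF1 site, and CACGTG, an E-box. Each was searched on both strands.
Mrpl2, chr17:46645971-46646220: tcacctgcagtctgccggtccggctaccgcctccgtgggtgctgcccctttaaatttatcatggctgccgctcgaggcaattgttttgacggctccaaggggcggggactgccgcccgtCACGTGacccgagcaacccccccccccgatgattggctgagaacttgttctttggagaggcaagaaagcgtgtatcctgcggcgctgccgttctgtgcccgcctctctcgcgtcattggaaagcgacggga
Mrps18c, chr5:100798509-100798758: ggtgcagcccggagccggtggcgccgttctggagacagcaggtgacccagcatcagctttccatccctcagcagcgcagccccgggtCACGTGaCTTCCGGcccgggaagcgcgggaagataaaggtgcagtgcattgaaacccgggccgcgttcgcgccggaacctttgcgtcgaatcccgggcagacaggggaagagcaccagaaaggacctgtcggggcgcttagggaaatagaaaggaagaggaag
Mrpl51, chr6:125191950-125192199: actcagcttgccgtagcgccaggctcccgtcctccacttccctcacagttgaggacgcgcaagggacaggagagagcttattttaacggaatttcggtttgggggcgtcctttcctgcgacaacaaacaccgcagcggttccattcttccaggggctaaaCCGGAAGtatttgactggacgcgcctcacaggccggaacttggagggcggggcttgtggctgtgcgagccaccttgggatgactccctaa
The E-box lies 131 bases before the start in Mrpl2 and 163 bases before it in Mrps18c, where the ETS core follows in reverse orientation after 1 base. In Mrpl51 the ETS core lies 90 bases before the start. RefSeq promoters were matched for 63 of the 72 members, and Mrpl2 has 3 listed starts, of which the first was used.

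Of those 63 members 57 were detected. The ETS core was present upstream of 16 of the 57 (28.1%), against 14.0% of the 7046 detected genes with a promoter in the table. The NRF1 core was upstream of 6 detected members (10.5%), against 4.54% of detected genes, and the E-box of 5 (8.77%), against 8.53%. The NRF1 core was also found upstream of the undetected members Mrpl32 and Mrpl39. A match describes letters only and says nothing about binding. Detected members with the ETS core had a median log2 change of 0.10 (16 genes), against 0.11 for 41 members without it. The 6 members with the NRF1 core had a median of 0.01, against 0.11 for 51 without it. For the 5 members with the E-box, Mrpl2, Mrpl20, Mrpl36, Mrpl37 and Mrps18c, the median was 0.21, against 0.09 for 52 without it. The motifs were chosen after the values were seen, and Mrpl2 and Mrps18c were the highest members of their subunits. These splits therefore cannot link a motif to the change, and none was tested.

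The members as a group were slightly higher in the pool labelled KO, and almost none moved far. Of 65 detected members 47 had a positive and 18 a negative log2 change. The median was 0.09 on the log2 scale, or 6.76% higher in KO, with quartiles at -0.04 and 0.19. Across all 8865 detected genes the median was 0.0017, and 50.2% of the changes were positive. In the normalized table of the authors, where background was not subtracted, the member median was 0.08 with 47 positive changes, against an all-gene median of 0.0013. Without any normalization both subunit medians stayed positive, and the median of all genes was 0.05. A gene, read from its brightest probe, counted as detected if either pool had a detection p-value below 0.01.

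By the size rule 0 members were higher in KO and 1 was lower, Mrpl51, or 1 of 65 members. The same rule called 3.1% of all detected genes higher and 2.28% lower, or 5.38% in either direction, so 1 lower member is no more than that level. At a smaller limit, a signal 25% above that of the other pool, 5 of 65 members were higher in KO (7.69%) and 3 were lower (4.62%), against 11.6% and 9.97% of all detected genes. Most members were bright, and the 1.5-fold rule called fewer bright genes. With a mean log2 signal of 8 or more required, it called 0 of 58 members, against 1.29% of genes higher and 0.842% lower. At the 25% limit 4 of these 58 members were higher and 1 was lower, against 6.89% and 5.5% of 5106 genes. In that bright range 45 of the 58 members had a positive change (77.6%), against 50.2% of all bright genes, and the medians were 0.10 and 0.0010. In the authors' values the 1.5-fold rule called 48 genes higher (0.541%) and 15 lower (0.169%), against 275 and 202 in the background-corrected values, and no member. At the 25% limit the authors' values gave 2 higher members and 1 lower member, against 3.2% and 2.35% of genes.

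**Figure D1:**
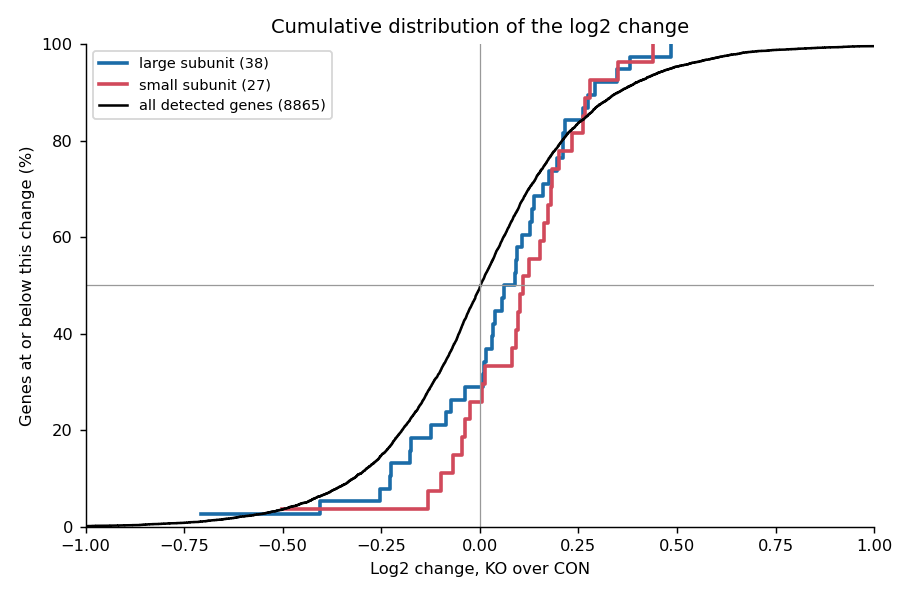
Cumulative share of genes (vertical axis, percent) at or below each log2 change, KO over CON (horizontal axis), for 38 large subunit genes, 27 small subunit genes and 8865 detected genes. Both subunit curves cross 50% to the right of 0, at medians of 0.08 and 0.11, while the curve of all genes crosses near 0.

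The large and small subunits had similar values. The 38 detected large subunit genes had a median log2 change of 0.08 (5.41% higher in KO), with 27 positive and 11 negative changes between -0.71 and 0.48. The 27 detected small subunit genes had a median of 0.11 (7.97% higher in KO), with 20 positive and 7 negative changes between -0.50 and 0.44. The value of -0.50 belongs to Mrps15, which was below detection in KO. It was at least 1.29-fold lower there on the background-corrected scale only. At 1.1-fold, 7 large subunit genes and 1 small subunit gene were lower in KO, while 12 in each subunit were higher. Among all detected genes 28.5% were 1.1-fold higher and 27.2% lower. The difference between the subunits was not tested, since genes are no replicates of a genotype.

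**Figure D2:**
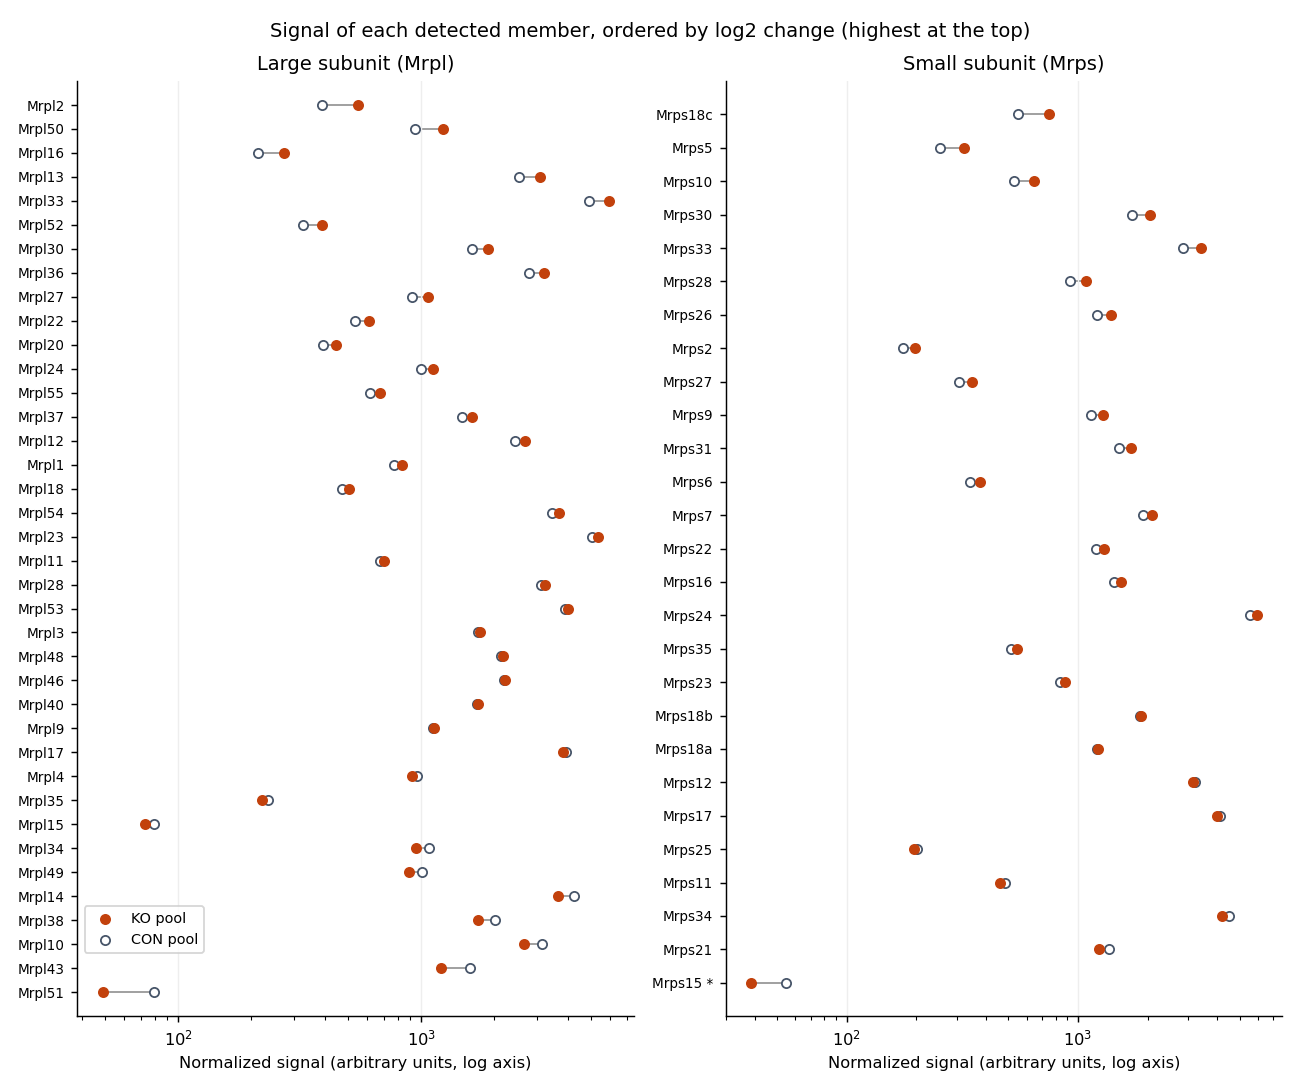
Normalized signal (log axis, arbitrary units) of each detected member in the KO pool (filled) and the CON pool (open), ordered by log2 change with the highest at the top; the asterisk marks Mrps15, detected in CON only. Most pairs lie close together with the KO point on the right, and the widest gap is that of Mrpl51 (48.8 in KO, 79.6 in CON).

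Among the large subunit proteins with bacterial counterparts, 18 of 25 detected genes had a positive change and the median was 0.09. Mrpl2, a conserved protein close to the peptidyl transferase centre, had a normalized signal of 547 in KO and 391 in CON, from its only probe. Its log2 change of 0.48 was the highest of all members. Mrpl16, which lies near the tRNA binding sites, read 271 in KO and 213 in CON (0.35). Mrpl13 read 3093 in KO and 2524 in CON (0.29). All 3 were higher in KO in the authors' values too, by 0.37, 0.21 and 0.28 on the log2 scale. Mrpl33, a small protein of the large subunit, read 5906 in KO and 4881 in CON (0.28), and its second probe gave 0.21. Mrpl30 read 1883 in KO and 1622 in CON (0.22). Mrpl36 read 3210 in KO and 2774 in CON (0.21).

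The proteins of the flexible stalk, which recruits translation factors, went in opposite directions. Mrpl12, the repeated stalk protein that also binds mitochondrial RNA polymerase in human cells, had 2660 in KO and 2435 in CON, a log2 change of 0.13. Mrpl10, the stalk base to which Mrpl12 attaches, had 2642 in KO and 3147 in CON, a change of -0.25, and its second probe gave -0.17. Mrpl14, at the interface with the small subunit, was also lower, with 3645 in KO and 4264 in CON (-0.23). Mrpl34 had 954 in KO and 1076 in CON (-0.17). Mrpl15 was dim, with 73.1 in KO and 79.6 in CON (-0.12), and its raw signals of 200.6 in KO and 199.6 in CON did not show that direction.

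Large subunit proteins listed as found only in mitochondria spread most widely, with a median of 0.02 over 12 detected genes, 8 of them positive. Mrpl55 (0.14) was in neither this list nor that of large subunit proteins with bacterial counterparts. Mrpl51 was lowest. Its brightest probe had raw signals of 175.6 in KO and 199.6 in CON, close to the median raw signal of all probes (158.5 in KO and 153.6 in CON). After background correction these became 48.8 in KO and 79.6 in CON, a 1.63-fold lower value in KO (-0.71 on the log2 scale). The second detected probe of Mrpl51 passed detection in CON only, with raw signals of 144.1 in KO and 170.2 in CON, and was at least 1.15-fold lower. The remaining probe was below detection in both pools at 144.1 in KO and 149.6 in CON. All 3 probes were therefore lower in KO in the raw signals. In the authors' values the brightest probe had a log2 change of -0.27, under the size limit. Those values still contain the background.

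Mrpl43, the next lowest, was bright. It had 1202 in KO and 1592 in CON, a log2 change of -0.41, or -0.35 in the authors' values. Its second probe, for the same transcript accession, had 1227 in KO and 1347 in CON (-0.14). Both Mrpl43 probes were thus lower in KO, by different amounts. Mrpl38 had 1715 in KO and 2008 in CON (-0.23). Mrpl49 was covered by 4 detected probes that ranged from -0.24 to 0.01, with 887 in KO and 1003 in CON for the brightest (-0.18). Against these, Mrpl50 had 1223 in KO and 939 in CON, a change of 0.38. Mrpl52 had 390 in KO and 325 in CON (0.26).

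**Figure D3:**
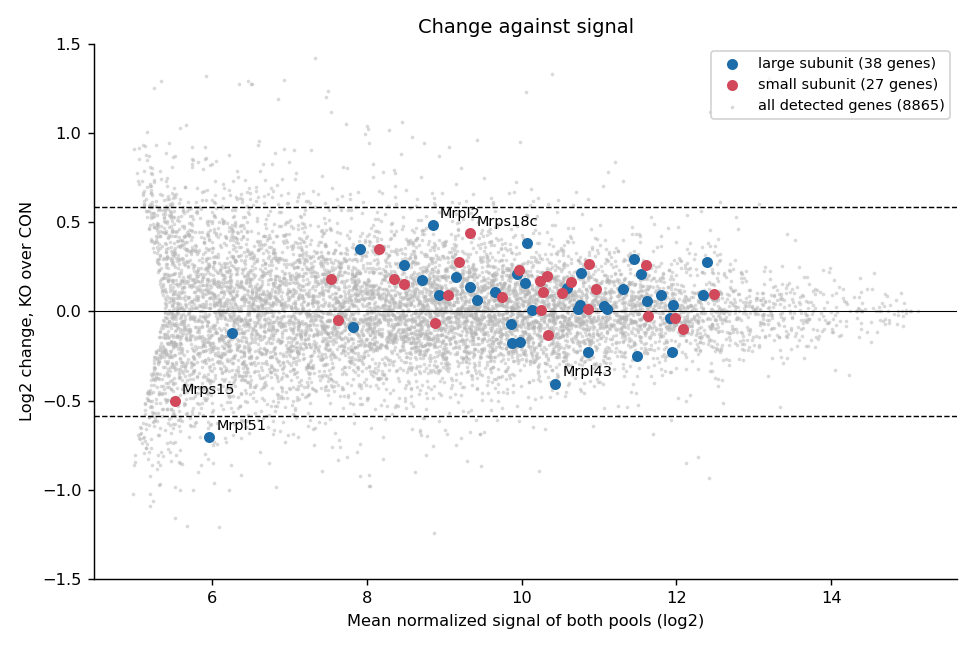
Log2 change, KO over CON (vertical axis), against the mean log2 signal of both pools (horizontal axis) for large subunit genes, small subunit genes and 8865 detected genes (grey; 17 genes lie beyond the vertical axis); dashed lines mark 1.5-fold. Members lie inside the dashed lines except Mrpl51, and both Mrpl51 and Mrps15 lie at the dim end, where grey points spread most.

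In the small subunit the highest value belonged to Mrps18c, 1 of 3 mammalian relatives of a single bacterial protein. It had 748 in KO and 552 in CON, a log2 change of 0.44, from its only probe. Mrps18b had 1873 in KO and 1855 in CON (0.01). Mrps18a, which in the assembled ribosome of mammals sits in the large subunit, had 1218 in KO and 1213 in CON (0.0060). The 3 relatives thus did not share a shift, and the direction of Mrps18a and Mrps18b turned negative when arrays were centred on the 75th percentile. Mrps30 is also a large subunit protein despite its name and had 2052 in KO and 1706 in CON (0.27). With Mrps30 and Mrps18a counted in the large subunit, Mrps36 left out and ribosomal proteins with other symbols added, the medians were 0.08 for the large and 0.10 for the small subunit.

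The next highest small subunit gene was Mrps5, a protein near the mRNA entrance, which had 321 in KO and 252 in CON, a log2 change of 0.35, but its second probe had 197 in KO and 199 in CON (-0.01). Mrps10 had 644 in KO and 531 in CON (0.28), and 0.05 by its second probe. Mrps33, found only in mitochondria, had 3417 in KO and 2851 in CON (0.26). Its second probe, designed to another transcript accession, gave 0.28, the closest agreement among members with several probes. Mrps28 had 1088 in KO and 925 in CON (0.23). Mrps26 had 1384 in KO and 1204 in CON (0.20). Mrps2 had 198 in KO and 175 in CON (0.18). The 9 detected small subunit genes listed as found only in mitochondria had a median of 0.11, and the 15 listed with a bacterial counterpart 0.10. Mrps28, Mrps18a and Mrps30 were in neither list.

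Few small subunit genes were lower in KO. Mrps15 was detected in CON only, with raw signals of 165.2 in KO and 176.0 in CON, and was at least 1.29-fold lower in KO on the background-corrected scale. Its log2 change was -0.17 in the authors' values and -0.09 in raw signals. Mrps21 had 1238 in KO and 1356 in CON (-0.13). Mrps34, whose loss in mice destabilises the small subunit, had 4183 in KO and 4478 in CON (-0.10). Mrps12, a protein of the decoding centre, had 3145 in KO and 3200 in CON (-0.03). Mrps11, of the platform, had 462 in KO and 484 in CON (-0.07). Mrps17 had 3985 in KO and 4094 in CON (-0.04), and Mrps25 had 195 in KO and 201 in CON (-0.05). Both of these were slightly higher in KO in the raw signals.

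Not every member could be measured. Below detection in both pools were Mrpl19, Mrpl21, Mrpl32, Mrpl39, Mrpl45, Mrps14 and Mrps36, 7 of the 72. Mrpl45 helps to tether the ribosome to the inner membrane, and Mrps36 is now known as a component of the 2-oxoglutarate dehydrogenase complex. Of the detected members, 58 had a mean log2 signal of at least 8, and the 7 dimmer ones included the lowest gene of each subunit, Mrpl51 and Mrps15. RefSeq lists pseudogene copies of Mrpl23, Mrpl27, Mrpl48 and Mrps36, and signal shared with copies was not measured.

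Several members had more than 1 probe, which gives a second reading of the same pools. Among 17 members with at least 2 detected probes, 11 had all probes on the same side of 0 (64.7%), against 54.5% of 2211 genes on the array. The median gap between the highest and the lowest probe was 0.10 on the log2 scale for members and 0.24 for all such genes. Neither comparison was matched for signal, and most members were bright. Among all detected genes the quartiles of the change were -0.22 and 0.23 at mean log2 signals of 4 to 8. At 11 to 13 they were -0.10 and 0.11. Mrps7, a small subunit protein that binds ribosomal RNA, had probes on opposite sides, with 2089 in KO and 1916 in CON (0.12) against 473 in KO and 577 in CON (-0.29). Mrps31 had 3 detected probes between -0.01 and 0.26. Mrps25 had 3 between -0.52 and 0.0032, the lowest of them detected in CON only. Mrps18b, Mrps5 and Mrpl49 also had probes of both signs.

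**Figure D4:**
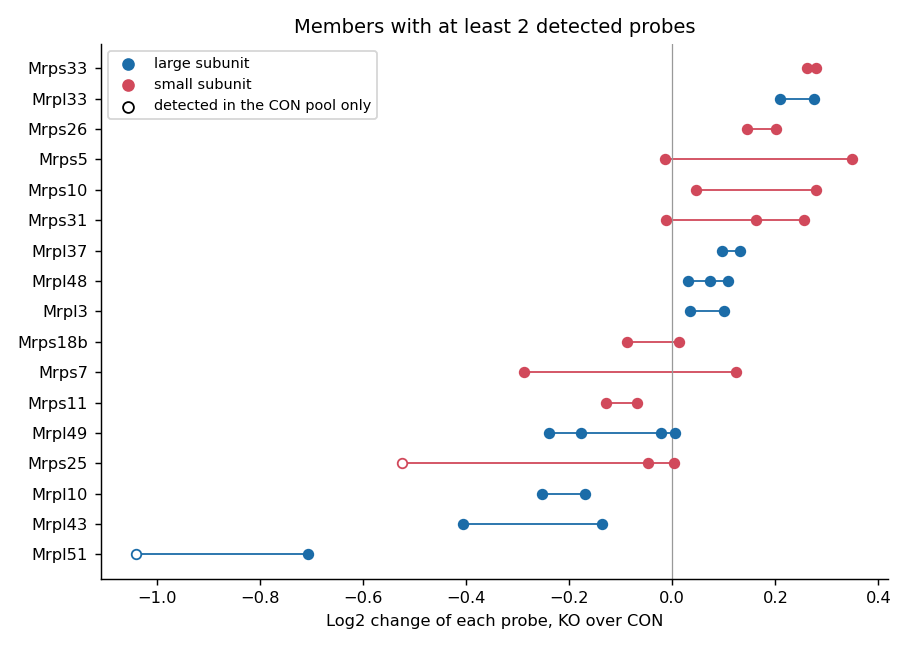
Log2 change, KO over CON (horizontal axis), of each detected probe for the 17 members with at least 2, ordered by their mean; open points were detected in the CON pool only and lines join probes of 1 gene. Probes of Mrps33 and Mrpl33 lie together above 0 and those of Mrpl51, Mrpl43 and Mrpl10 below it, while 6 members span 0.

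Ribosomal proteins that carry other symbols gave values in the same range. Of 6 detected genes in this list 0 passed the size rule, against 5.38% of all detected genes, and the median log2 change was 0.02. Chchd1 had 6611 in KO and 5429 in CON (0.28), and Mrpl57, listed under its older symbol, had 95.7 in KO and 85.0 in CON (0.17). Dap3, a GTP-binding protein of the small subunit also known for a role in cell death, had 4088 in KO and 4473 in CON (-0.13). Mrpl47 and Mrpl42, also listed under older names but not counted among those 6 genes, had log2 changes of 0.23 and 0.08.

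Among the factors that assemble and serve the mitochondrial ribosome, the medians of the groups lay on both sides of 0. Of 19 detected assembly factors 1 was 1.5-fold higher and 0 were lower, against 3.1% and 2.28% of all detected genes. The median of the assembly factors was -0.07, with 7 positive values. The higher gene was Mterf3, needed in mice for large subunit assembly and a regulator of mitochondrial transcription. It had 364 in KO and 189 in CON, a log2 change of 0.95, or 0.59 in the authors' values. Tfb1m, the methyltransferase of the small ribosomal RNA, had 58.0 in KO and 83.6 in CON (-0.53, and -0.22 in the authors' values). Mrm3, a methyltransferase of the large ribosomal RNA, had 227 in KO and 303 in CON (-0.42).

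Among 13 detected translation factors and partners 0 passed the size rule, against 5.38% of all detected genes, and the median was 0.03. Slirp, which stabilises mitochondrial messenger RNA, had 2451 in KO and 1751 in CON (0.49), Mtif3, an initiation factor, 259 in KO and 317 in CON (-0.29), and Mtrf1, of the release factor family, 109 in KO and 93.4 in CON (0.22). The 15 detected genes that charge mitochondrial tRNA had a median of -0.02, and 0 of them passed the rule. Gatb, a subunit of the amidotransferase that makes glutaminyl-tRNA, had 106 in KO and 149 in CON (-0.48). Pars2 and Mars2, the prolyl and methionyl synthetase genes, had log2 changes of -0.42 and 0.27.

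The genes of mitochondrial DNA and its transcription, with their nuclear regulators, had a median of 0.08 over 15 detected genes, 12 of them positive. Of these 15 genes 0 passed the size rule, against 5.38% of all detected genes. Ssbp1, the single-strand binding protein of mitochondrial DNA, had 427 in KO and 296 in CON (0.53). Tfam, which packages mitochondrial DNA and starts its transcription, had 312 in KO and 225 in CON (0.47). Myc, a regulator of ribosome production, was dim, with 51.5 in KO and 72.3 in CON (-0.49, and -0.18 in the authors' values). Nrf1 and Gabpa, which encode factors for the NRF1 and ETS cores above, had log2 changes of 0.05 and 0.08.

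**Figure D5:**
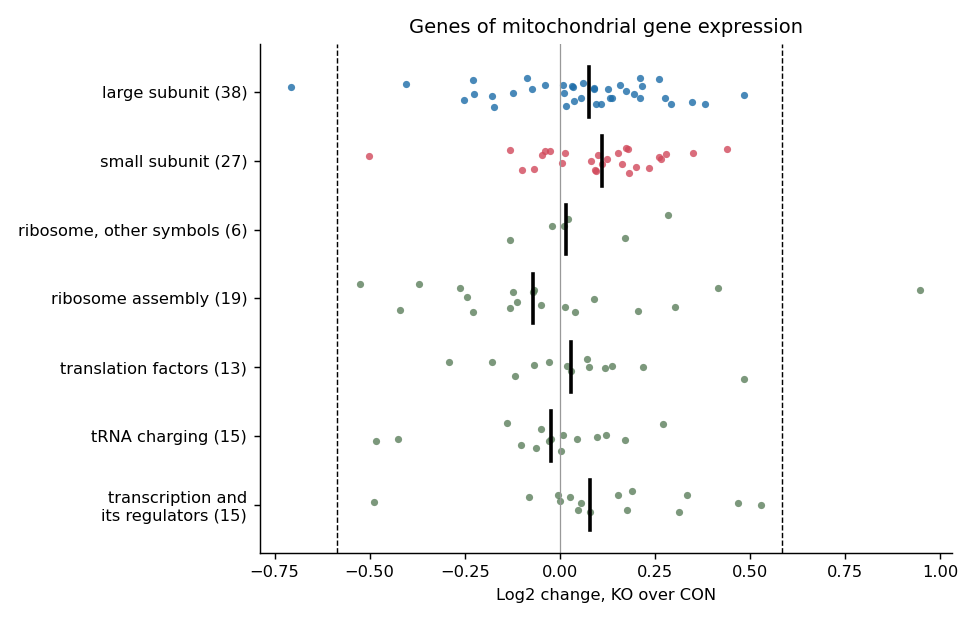
Log2 change, KO over CON (horizontal axis), of each detected gene in 7 groups of mitochondrial gene expression; black bars are medians, dashed lines mark 1.5-fold, and vertical scatter within a group has no meaning. Mrpl51 and Mterf3 lie outside the dashed lines, and the assembly factors have the lowest median, at -0.07.

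Values of other large housekeeping complexes are given for comparison. The 70 detected nuclear genes of the respiratory chain and ATP synthase had a median log2 change of 0.10, with 49 positive values. Of these 70 genes 4 were past 1.5-fold higher, against 3.1% of all detected genes. The 60 detected cytosolic ribosomal protein genes had a median of 0.04 and 39 positive values, and the 33 proteasome subunit genes 0.06 and 24. None of these differences from the mitochondrial ribosome was tested.

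Markers of other cell types also differed between the pools. Skeletal muscle, a tissue rich in mitochondria, had 3 of 7 markers detected in KO and 1 in CON, with summed signals of 364 in KO and 201 in CON. Myl1, detected in both pools, had 149 in KO and 47.9 in CON, 3.12-fold higher in KO. Myh8 and Acta1 passed detection in KO only and were at least 1.53-fold and at least 1.04-fold higher. Of the defining muscle genes Tnnt3, Ckm, Actn2 and Tnnc2 were below detection. T cell markers were detected for 6 of 6 genes, with sums of 5331 in KO and 4774 in CON. Fibroblast markers summed to 646 in KO and 753 in CON with 2 of 7 detected, and 1 of these, Col1a1, was 1.78-fold lower in KO. Of 5 endothelial markers 0 was detected. Melanocyte markers summed to 2595 in KO and 2899 in CON, and antigen-presenting cell markers to 15996 in KO and 15775 in CON, with 4 of 6 detected in each list. Erythroid markers summed to 468 in KO and 730 in CON with 1 of 3 detected, Hba-a1, which was 1.61-fold lower in KO. Their part in the member values was not tested. In RNA from a whole tissue layer, fewer cells of a type and less RNA per cell cannot be told apart.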

How the data were processed

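Biotin-labelled RNA of 1 KO pool and 1 CON pool was read on a mouse bead array. The submitters' processing notes name GenomeStudio 2011.1. Per the file headers, the non-normalized table deposited gives each probe's average bead intensity, on a linear scale, and its detection p-value. Their normalized intensity table keeps the background. Its sorted signals agree between arrays within 0.3, the pattern of quantile normalization, and the series matrix holds the same values, with 0 probes differing.

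The non-normalized intensities were processed with neqc in limma 3.58.1 (R 4.3.3), which models background through the detection p-values, then adds 16, quantile-normalizes and takes log2. "Signal" in the report is 2 to the power of that value unless called raw. The offset and background model decide the fold of dim genes. Symbols were updated through RefSeq (GRCm38.p6) for 25376 of 25697 probes. Probes were given names only, no coordinates. A gene was read from its brightest probe. Where a gene was undetected in 1 pool, its fold was bounded by the lowest signal of a detected probe on that array.

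Members, gene lists, markers and alternatives were chosen with earlier results of these data known. The 3 motifs and the members whose upstream sequence is shown were chosen after the values were seen. Named genes were the 8 highest and 8 lowest members of each subunit, members past 1.5-fold, those undetected or with probes of both signs, Mrpl12, the Mrps18 relatives, Mrps30 and Mrps36, and in other lists the 3 genes with the largest change. Other genes were added with their values known. The steps were also run on simulated arrays with known changes and a set noise. That run checks the code, its outcome is not given here, and it does not measure the spread between pools. Detection was 44.4% of probes in KO and 44.8% in CON. Precision is limited by having 1 array a genotype.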

Additional observations from a re-analysis of the deposited data

How the results depend on the processing

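Both subunit medians stayed positive under every alternative run, between 0.05 and 0.10 for the large subunit and between 0.09 and 0.14 for the small subunit. Of 65 detected members 55 kept their direction in 5 versions of the values. The other 10 had log2 changes of at most 0.12 in size in the background-corrected values used above. The count of 1 lower large subunit gene, Mrpl51, went to 0 in the authors' values, in raw signals, with an offset of 50, where the mean log2 signal had to reach 8 and at 2-fold, and to 2 when every detected probe was counted. Mrpl51 itself had -0.27 in the authors' values, -0.46 with the offset of 50 and -0.18 in raw signals. These 3 settings keep or add a constant signal, which shrinks the fold of dim probes. At the 25% limit the large subunit had 3 higher and 2 lower genes and the small subunit 2 higher and 1 lower. The count of changed genes over the whole array, 477, became 63 in the authors' values, 82 in raw signals, 159 with the offset of 50, 299 with detection in both pools, 109 among genes of mean log2 signal 8 or more, 52 at 2-fold and 1913 at the 25% limit. The all-gene median, 0.0017, was -0.0084 with 75th percentile centring and -0.0075 with every probe counted. Adding the 4 genes with older symbols, an alternative chosen after seeing the data, gave a large subunit median of 0.09. No paired analysis was possible because each genotype was 1 pool. Of 65 detected members 7 lay under a mean log2 signal of 8.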
